A study of Homo sapiens with 6 samples.

Results

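The 10 genes described here belong to the nuclear lamina and the inner nuclear envelope, and they were followed through 6 chromatin accessibility maps of human pluripotent stem cells among 20037 protein-coding genes. The genes LMNA, LMNB1, LMNB2, LBR, EMD, TMPO, LEMD3, BANF1, SUN1 and SUN2 were chosen by name, at a time when a summit gained beside EMD and one lost beside TMPO were already known from the same libraries. Summit presence in the 4 knockdown and 2 control libraries had thus been seen at these genes, and the contrast between the groups is described here without a test. An exact two-sided permutation test of 4 libraries against 2 cannot give a p below 0.133 in any case. All 10 genes were found in the RefSeq table. Each gene was taken with 20 kb on either side, and these windows held 263 of the 356720 summits.

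The cells were the H1 line, an established human embryonic stem cell line grown in mTeSR1 on Matrigel. They had been infected with a virus carrying a short hairpin RNA and selected with puromycin. There were 2 libraries for shHNRNPU #1 and 2 for shHNRNPU #2, both against HNRNPU, a nuclear RNA-binding protein, and 2 for the control hairpin shLUC against luciferase. In ATAC-seq a transposase cuts accessible DNA, and the summit of a peak is the base with the strongest signal. The files give summits and a score per summit, with no read counts, so the depth of the libraries is unknown and the loss of HNRNPU itself is not measured. A summit that is missing was not called, which does not mean that the chromatin was closed. The labels do not say whether the repeats were separate infections, so the spread between them may be technical.

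The lists held 52168 to 63519 summits per library. Because scores were not normalized between libraries, each summit is given by its percentile, the share of summits in its own list that score no higher. POU5F1, SOX2 and NANOG, genes that define pluripotent cells, each had a summit within 2000 bp of a listed start, or of a gene end for POU5F1, in all 6 libraries. HNRNPU had 2 such summits in each library.

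The lamina is a mesh of intermediate filament proteins under the inner nuclear membrane. A-type lamins come from LMNA, and B-type lamins from LMNB1 and LMNB2. LBR, emerin (the product of EMD), membrane-bound forms of LAP2 (the products of TMPO) and MAN1 (the product of LEMD3) sit in the inner membrane. They tie it to lamins and chromatin. Emerin, LAP2 and MAN1 carry a LEM domain that binds the small DNA-bridging protein encoded by BANF1. SUN1 and SUN2 span the inner membrane and reach, through nesprins, to the cytoskeleton. Heterochromatin is commonly found at the lamina, and pluripotent cells are known for low levels of A-type lamins.

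The bases in front of 4 of these genes are shown first, because the summits described below fall in them and are placed by them. RefSeq (GRCh38.p14) gave starts for 9 of the 10 genes, with SUN1 not in that table. Each run is the 250 bases before the first start, on the strand of the gene, and the capitals mark each summit in it with 5 bases on either side. The EMD run is chrX:154379045-154379294 on the plus strand and holds the summits of 3 shHNRNPU libraries. The TMPO run is chr12:98515323-98515572 on the plus strand and holds the shared summit position of shHNRNPU #1 repeat 1 and shLUC repeat 1. The LMNB2 run is chr19:2456960-2457209 on the minus strand and holds 5 summits, with no summit from shLUC repeat 1. The BANF1 run is chr11:66002253-66002502 on the plus strand and holds the summits of all 6 libraries.
EMD: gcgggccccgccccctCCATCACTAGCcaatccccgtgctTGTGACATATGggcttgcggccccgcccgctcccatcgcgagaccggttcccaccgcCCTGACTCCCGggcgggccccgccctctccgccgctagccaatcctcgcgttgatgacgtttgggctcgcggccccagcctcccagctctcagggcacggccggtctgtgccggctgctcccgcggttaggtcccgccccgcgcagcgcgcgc
TMPO: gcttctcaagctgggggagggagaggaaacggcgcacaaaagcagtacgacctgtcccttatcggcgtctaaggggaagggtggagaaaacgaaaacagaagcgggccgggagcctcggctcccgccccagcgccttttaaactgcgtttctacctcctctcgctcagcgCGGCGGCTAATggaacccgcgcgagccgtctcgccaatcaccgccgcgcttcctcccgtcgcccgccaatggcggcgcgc
LMNB2: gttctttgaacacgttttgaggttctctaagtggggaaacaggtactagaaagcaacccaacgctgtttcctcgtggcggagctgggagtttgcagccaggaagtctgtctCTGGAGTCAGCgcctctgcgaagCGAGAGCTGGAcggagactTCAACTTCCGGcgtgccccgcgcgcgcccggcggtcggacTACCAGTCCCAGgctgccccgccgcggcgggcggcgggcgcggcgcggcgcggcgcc
BANF1: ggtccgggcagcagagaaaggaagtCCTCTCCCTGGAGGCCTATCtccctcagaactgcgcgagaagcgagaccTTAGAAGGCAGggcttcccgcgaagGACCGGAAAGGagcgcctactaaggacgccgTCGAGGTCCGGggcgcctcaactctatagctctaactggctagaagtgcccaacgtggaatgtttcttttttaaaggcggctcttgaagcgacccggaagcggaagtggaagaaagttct

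Short promoter motifs were looked up on both strands of the 250 bases before the start, for all 9 genes and for all listed starts. Each of the 9 genes was taken at its first start only. The runs of LMNA, LMNB1 and LBR held no summit. The CCAAT box (CCAAT) was in 5 of 9, beside 32.0% of all 35116 such runs, and the GC box (GGGCGG) was in 6 of 9, beside 42.6%. The ETS core (CGGAAG) was in 3 of 9, beside 16.5%, the cAMP response motif (TGACGT) in 1 of 9, beside 7.10%, and the TATA box (TATAAA) in 0 of 9, beside 10.7%. EMD held 2 CCAAT boxes, at -224 to -220 and at -115 to -111 from its start, 6 GC boxes and the TGACGT match at -99 to -94. Over the 9 genes, 1 pair of matches overlapped. A match is a run of letters and not a measured binding site.

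Summits in the 10 windows differed little in number between the groups. With shHNRNPU #1 there were 45 and 46, with shHNRNPU #2 47 and 40, and with shLUC 44 and 41, the first value of each pair being that of repeat 1, as in all pairs that follow. The shHNRNPU libraries averaged 44.5 ± 3.11 summits (SD, n = 4) and the shLUC libraries 42.5 ± 2.12 summits (SD, n = 2), a difference of 2 summits that was smaller than the spread between the shHNRNPU libraries. Per 1000 summits of a list the means were 0.764 ± 0.0329 (SD, n = 4) and 0.688 ± 0.0279 (SD, n = 2), and all 4 shHNRNPU libraries, from 0.724 to 0.805, lay above both shLUC libraries, at 0.668 and 0.707. How often other sets of genes show such an order was not computed, so nothing is read from it. The group ranges of the summit number overlapped at 8 of the 10 genes, as the plot of summit counts shows. LMNB2 had more summits in every shHNRNPU than in every shLUC library, as did 3.54% of the 18733 gene windows with any summit. TMPO had fewer in every shHNRNPU library, as did 3.92% of the windows. With 5 kb on either side of the genes, LMNB2 no longer separated the groups, and TMPO no longer did so once summits scoring under 5 were set aside or with 50 kb on either side.

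**Figure D1:**
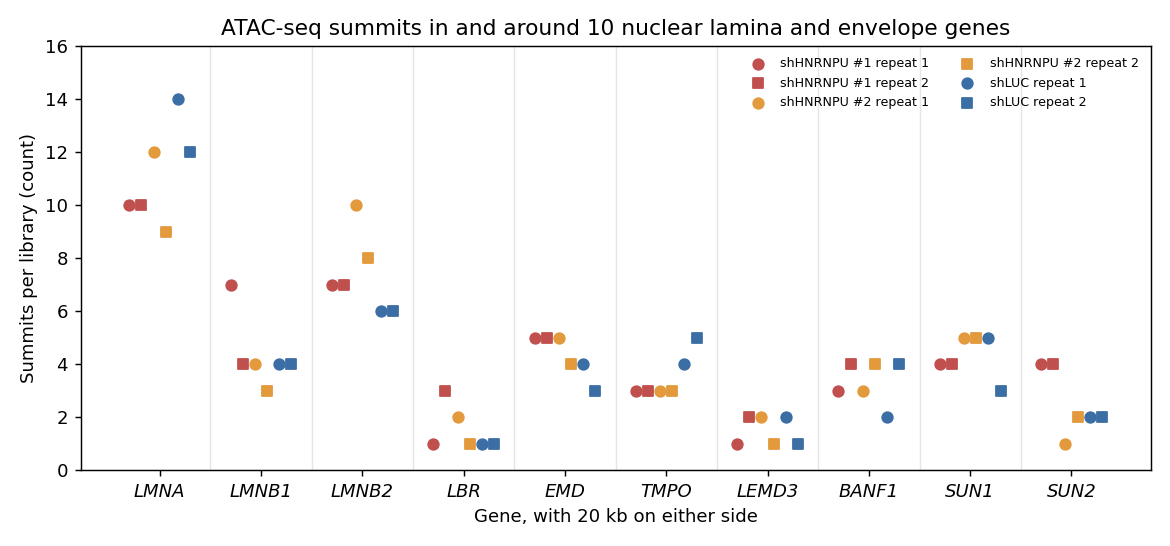
Number of summits per library (vertical axis, count) in each of the 10 genes with 20 kb on either side (horizontal axis). Each point is 1 library, circles are repeat 1 and squares repeat 2, and the colours are the hairpins. LMNA has the most summits, 9 to 14 per library, and the groups separate at LMNB2 (7 to 10 against 6) and TMPO (3 against 4 and 5).

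Summits from the 6 lists that lay within 250 bp of a common centre were joined into a locus. The windows held 74 of the 123130 loci. Of these, 27 (36.5%) had a summit in all 6 libraries and 23 (31.1%) in 1 library, beside 20.7% and 38.0% of all loci. Lost loci are those with a summit in each shLUC library and in none of the 4 shHNRNPU libraries, and gained loci are the reverse. Among the 74 loci, 2 were lost and 2 gained, beside 1.93% and 0.880% of all loci. Lost loci lay in 2 of the 10 windows, LMNA and TMPO, beside 8.78% of gene windows, and gained loci in 1, EMD, beside 6.28%. A lost or gained locus was called shifted when a summit of the lacking group lay 250 to 1000 bp away. Of the 74 loci 2 were shifted, 1 at EMD and 1 at TMPO, beside 0.696% of all loci, and 2 of the 10 windows held one, beside 5.02% of gene windows. These shares are printed as background, and since EMD and TMPO were chosen with these calls known, nothing is read from them. With shLUC repeat 1 left out the lost loci numbered 5, and with shLUC repeat 2 left out 7 were lost and 5 gained. At the limit of 250 bp, the largest distance counted as present being 245 bp and the smallest counted as absent 266 bp.

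**Figure D2:**
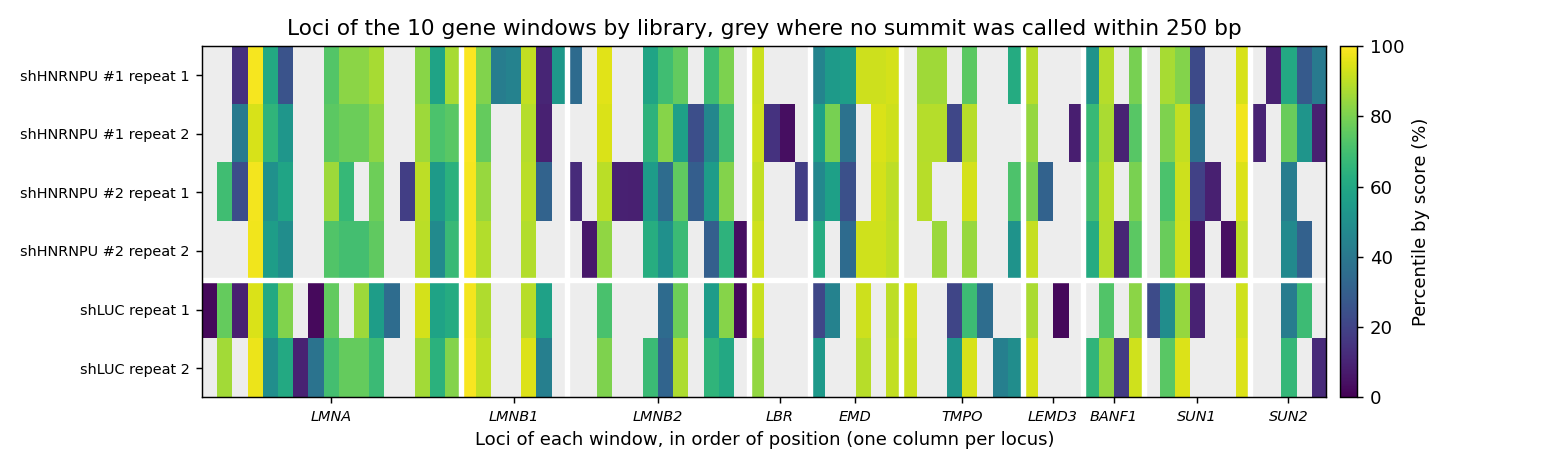
Map of the 74 loci, in order of position within each gene window (columns), in the 6 libraries (rows, with shHNRNPU above the white line and shLUC below it). The colour is the percentile by score, and grey marks a library with no summit within 250 bp. The start loci of LMNA and LMNB1 are bright in all rows, and of the 2 neighbouring bright loci of EMD the right one is grey in both shLUC rows.

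EMD is a short gene on the X chromosome (chrX:154379295-154381523, plus strand) that encodes emerin. Its window held 5 summits in 3 of the shHNRNPU libraries and 4 in shHNRNPU #2 repeat 2, against 4 and 3 with shLUC. The summit nearest the start lay in other places in the groups. With shHNRNPU #1 it lay at -277 bp from the start in repeat 1 and at -205 bp in repeat 2. With shHNRNPU #2 it lay at -148 and -229 bp, and with shLUC at -471 and -542 bp. The 4 shHNRNPU summits thus lay nearer to the start than both shLUC summits. The mean distance was -214.75 ± 53.6 bp (SD, n = 4) with shHNRNPU and -506.5 ± 50.2 bp (SD, n = 2) with shLUC, a difference of 292 bp. The gap between the nearest summits of the groups was 194 bp, while the summits spread over 129 bp within shHNRNPU and 71 bp within shLUC.

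The percentiles at the EMD start lay close together. The percentile was 92.5 and 94.3 with shHNRNPU #1, 93.4 and 92.6 with shHNRNPU #2, and 92.4 and 89.2 with shLUC. Every shHNRNPU value was above both shLUC values, though the lowest, 92.5, was next to the higher shLUC value, 92.4. The share of regions with such an order was not computed. An open region upstream of EMD was thus called at high percentiles in all 6 libraries, with its summit in another place in each group. Because the match distance was 250 bp, the 2 overlapping loci in this region differ in pattern. The one centred at -205 bp was called gained, a call that ended with its shift when 500 bp counted as a match, while the one centred at -471 bp was present in both shLUC and 2 shHNRNPU libraries. In the EMD sequence printed above, the summits of shHNRNPU #2 repeat 2, shHNRNPU #1 repeat 2 and shHNRNPU #2 repeat 1 appear from left to right.

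The second gained locus in the EMD window lay at -5739 bp from the EMD start, inside FLNA, the gene for the actin cross-linker filamin A, and 1078 bp past the listed FLNA start. Its percentile was 56.0 and 37.7 with shHNRNPU #1 and 24.6 and 34.8 with shHNRNPU #2. No shLUC summit lay within 1000 bp, the nearest being 2271 bp away. This locus was weaker than the one at the EMD start, and it was no longer among the gained loci when only scores of at least 5 were kept. The locus at the start of the ribosomal protein gene RPL10, in the same window, had a summit in all 6 libraries at percentiles that overlapped between the groups, on average 91.7 ± 1.71 (SD, n = 4) in the shHNRNPU and 90.5 ± 0.661 (SD, n = 2) in the shLUC libraries.

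**Figure D3:**
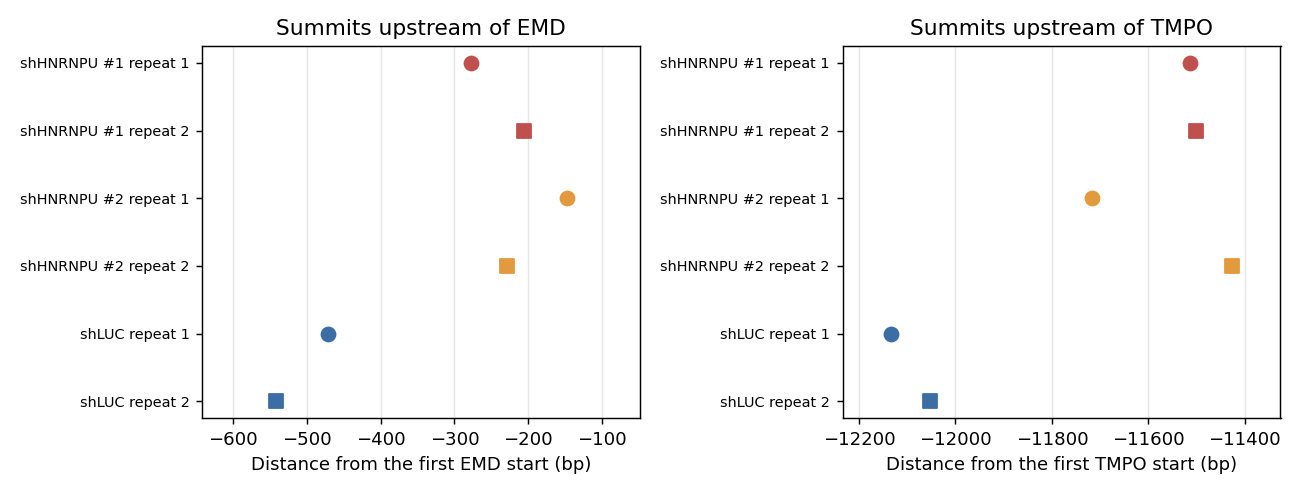
Position of the summit nearest the shifted loci in each library, upstream of EMD (left) and of TMPO (right), as distance in bp from the first start of the gene (horizontal axes, not on one scale). Each point is 1 library (rows). With shHNRNPU all summits lie nearer the gene start than with shLUC, at -277 to -148 bp against -542 and -471 bp for EMD and at -11716 to -11426 bp against -12134 and -12053 bp for TMPO.

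TMPO (chr12:98515573-98550351, plus strand) encodes the LAP2 proteins. Its window held 3 summits in each shHNRNPU library and 4 and 5 in the shLUC libraries. The lost locus lay at -12134 bp from the first start, with its centre over the noncoding RNA gene LINC02453. The summits there were at -11514 and -11501 bp with shHNRNPU #1, at -11716 and -11426 bp with shHNRNPU #2, and at -12134 and -12053 bp with shLUC. Again every shHNRNPU summit lay on the side of the gene start. The mean was -11539 ± 124 bp (SD, n = 4) against -12094 ± 57.3 bp (SD, n = 2), a difference of 554 bp with a gap of 337 bp between the groups. The summits spread over 290 bp within shHNRNPU, nearly as far as that gap. The percentile there was 85.9 and 88.9 with shHNRNPU #1, 89.3 and 84.9 with shHNRNPU #2, and 93.1 and 92.1 with shLUC, so the groups did not overlap in this value either.

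At the start of TMPO itself a summit was present in all 6 libraries, and it took places that the groups shared. It lay at -75 bp in shHNRNPU #1 repeat 1 and in shLUC repeat 1, at 38 to 40 bp in the other 3 shHNRNPU libraries, and at 6 bp in shLUC repeat 2. The percentile was 74.7 and 89.2 with shHNRNPU #1, 93.4 and 84.5 with shHNRNPU #2, and 68.7 and 93.9 with shLUC. Both shLUC values lie outside the shHNRNPU range, 1 below and 1 above it. The higher number of summits with shLUC came from weaker ones. The locus at -6266 bp had a summit in both shLUC libraries and in 1 shHNRNPU library, and loci at 903 and 17423 bp had one in a single shLUC library, all of them at percentiles from 21.0 to 52.2.

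LMNA (chr1:156082573-156140081, plus strand), the gene for lamins A and C, had the richest window, with 17 loci, of which 8 were present in all 6 libraries. The loci at 31897 and 32164 bp overlap and hold the same summits of shHNRNPU #1, shHNRNPU #2 repeat 2 and shLUC repeat 2. Each was present in 5 libraries, and between them every library had a summit. The window held 10 summits in each shHNRNPU #1 library, 12 and 9 with shHNRNPU #2, and 14 and 12 with shLUC. The groups thus met at 12. Every shHNRNPU library had fewer once summits scoring under 5 were set aside, and with 5 or 50 kb on either side. The same held without shHNRNPU #2 repeat 1 and without shLUC repeat 2. For these settings the share of gene windows with such an order was not computed, and nothing is read from it. The strongest locus lay at 74 bp from the first start, with percentiles of 98.5 and 94.0 for shHNRNPU #1, 98.2 and 97.9 for shHNRNPU #2, and 94.2 and 97.2 for shLUC. Its summits fell within 52 bp of each other. A locus at 23925 bp, just before the third listed start, was also present in all 6 libraries, at percentiles of 76.5 ± 6.05 (SD, n = 4) in the shHNRNPU and 73.2 ± 4.18 (SD, n = 2) in the shLUC libraries.

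Inside the LMNA gene body, 2 loci differed in percentile without overlap, in opposite directions. At 41201 bp the values were 87.1 and 83.2 with shHNRNPU #1, 78.0 and 75.4 with shHNRNPU #2, and 55.8 and 68.2 with shLUC. At 14192 bp they were 25.6 and 52.5, 58.3 and 49.1, and 81.0 and 60.8. The first was higher and the second lower in every shHNRNPU library. The LMNA locus called lost, at 22737 bp, was weak, with percentiles of 2.35 and 38.2 in the shLUC libraries and the nearest shHNRNPU summit 1136 bp away. It was absent from the lost loci when lists of one size, or scores of at least 5, were used.

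LMNB1 (chr5:126776623-126837020, plus strand) encodes lamin B1 and had the strongest promoter locus of the 10 genes. At 373 bp from the first listed start, and -140 bp from the second, it reached percentiles of 99.4 and 99.3 with shHNRNPU #1, 98.5 and 98.8 with shHNRNPU #2, and 98.2 and 99.2 with shLUC. The groups overlapped and the 6 summits lay within 73 bp. A further locus, at 1823 bp, kept both shLUC summits at 1823 bp and the shHNRNPU summits at 1708 to 1793 bp. Its shHNRNPU percentiles were 76.2 to 88.6, against 88.1 and 90.4 with shLUC. A locus past the gene end, at 68960 bp, had 10.2 and 9.01 with shHNRNPU #1 and 57.1 and 43.2 with shLUC. There shHNRNPU #2 repeat 1 had 31.8, and in repeat 2 no summit was called. The library shHNRNPU #1 repeat 1 had 3 summits in this window that no other library had, at percentiles from 42.5 to 53.5, which raised its count to 7 against 3 to 4 in the others.

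LMNB2 (chr19:2428166-2456959, minus strand) encodes lamin B2 and lies in a gene-rich stretch of chromosome 19. Its window held 7 summits in each shHNRNPU #1 library, 10 and 8 with shHNRNPU #2, and 6 in each shLUC library. The shHNRNPU summits at loci without a summit in shLUC repeat 2 were weak. Most were at loci present in 1 or 2 of the 4 shHNRNPU libraries and not in shLUC, at percentiles from 6.59 to 35.0. In shHNRNPU #2 repeat 2, a summit at percentile 3.64 lay at a locus shared with shLUC repeat 1. LMNB2 still separated the groups when only scores of at least 5 were kept. At that setting the locus at -5203 bp, with a score of 4.72, dropped out of shLUC repeat 2. The promoter locus at -134 bp had a summit in 5 libraries, at 58.5 and 64.7 with shHNRNPU #1, 55.4 and 62.3 with shHNRNPU #2, and 68.0 in shLUC repeat 2. In shLUC repeat 1 no summit was called there, which leaves its level unknown.

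Among loci of these windows with a summit in all libraries, 7 had percentiles that did not overlap between the groups. Neighbours of LMNB2 showed 3 of the 7. At the locus nearest the start of TIMM13, a mitochondrial import gene, the values were 95.7 and 94.4 with shHNRNPU #1, 89.5 and 83.3 with shHNRNPU #2, and 71.1 and 80.7 with shLUC. At the start of the noncoding gene LINC01775, -5203 bp from LMNB2, they were 69.2 and 81.7, 35.5 and 50.2, and 34.8 and 32.2. The lowest shHNRNPU value there was close to the higher shLUC value. At -6218 bp the order was turned, with 56.8 to 75.8 in the shHNRNPU libraries and 77.9 and 87.7 with shLUC. None of the 3 lies at the start of LMNB2 itself.

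BANF1 (chr11:66002503-66004149, plus strand) encodes the barrier-to-autointegration factor, which LEM-domain proteins bind. Its promoter locus at -212 bp lies between the starts of BANF1 and EIF1AD, which point away from each other, so it cannot be given to 1 of the 2 genes. The percentile was 88.7 and 87.4 with shHNRNPU #1, 89.1 and 88.8 with shHNRNPU #2, and 72.8 and 84.0 with shLUC. All shHNRNPU values were above both shLUC values and lay close together, with means of 88.5 ± 0.773 (SD, n = 4) and 78.4 ± 7.94 (SD, n = 2), a difference of 10.1 points. The size rests on shLUC repeat 1, and without it the difference was 4.48 points, against 15.7 points without shLUC repeat 2. A locus 20058 bp from the start, in CATSPER1, had the opposite order, with means of 77.0 ± 3.18 (SD, n = 4) and 87.7 ± 7.13 (SD, n = 2). The number of summits was 3 or 4 with shHNRNPU and 2 and 4 with shLUC.

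LBR (chr1:225401502-225428821, minus strand) and LEMD3 (chr12:65169583-65248355, plus strand) encode inner membrane proteins, the first a lamin B receptor that is also a sterol reductase and the second MAN1, known to bind receptor-regulated SMAD proteins. Each had a single locus that all libraries shared. The LBR locus lay at 652 bp, inside the gene, with percentiles of 91.0 to 92.9 in the shHNRNPU libraries and 91.6 and 83.9 with shLUC. The LEMD3 locus lay at -120 bp, with 79.7 to 91.4 in the shHNRNPU libraries and 87.3 and 93.9 with shLUC. At both genes the groups overlapped. The 6 other loci of these windows were each called in 1 library, at percentiles from 2.01 to 31.6.

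SUN1 (chr7:815557-874934) and SUN2 (chr22:38734734-38755998, minus strand) encode the inner membrane part of the bridge between nucleus and cytoskeleton. No start of SUN1 was listed, so distances were taken from either end of the gene, and the strongest locus near an end then lay at 60936 bp from the lower end, 61 bp from an end of GET4. It cannot be given to SUN1 alone, and its percentiles overlapped, at 90.6 to 97.8 in the shHNRNPU libraries and 92.7 and 94.8 with shLUC. At the lower end of SUN1 were 2 loci present in all libraries. The one at 373 bp had percentiles of 87.1 and 80.6 with shHNRNPU #1, 71.8 and 77.1 with shHNRNPU #2, and 49.1 and 74.4 with shLUC, so that shLUC repeat 2 lay within the shHNRNPU range. The one at 1018 bp had means of 89.4 ± 5.26 (SD, n = 4) and 89.4 ± 7.45 (SD, n = 2).

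The SUN2 promoter locus lay at -61 bp. Its percentile was 60.4 and 77.2 with shHNRNPU #1, 42.2 and 47.3 with shHNRNPU #2, and 42.0 and 66.5 with shLUC. Both shHNRNPU #1 values lay above both shHNRNPU #2 values. The share of all loci with such an order was not computed, and nothing is read from it. The shLUC values overlapped with those of both hairpins together. The SUN2 window held 4 summits in each shHNRNPU #1 library, 1 and 2 with shHNRNPU #2, and 2 in each shLUC library.

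**Figure D4:**
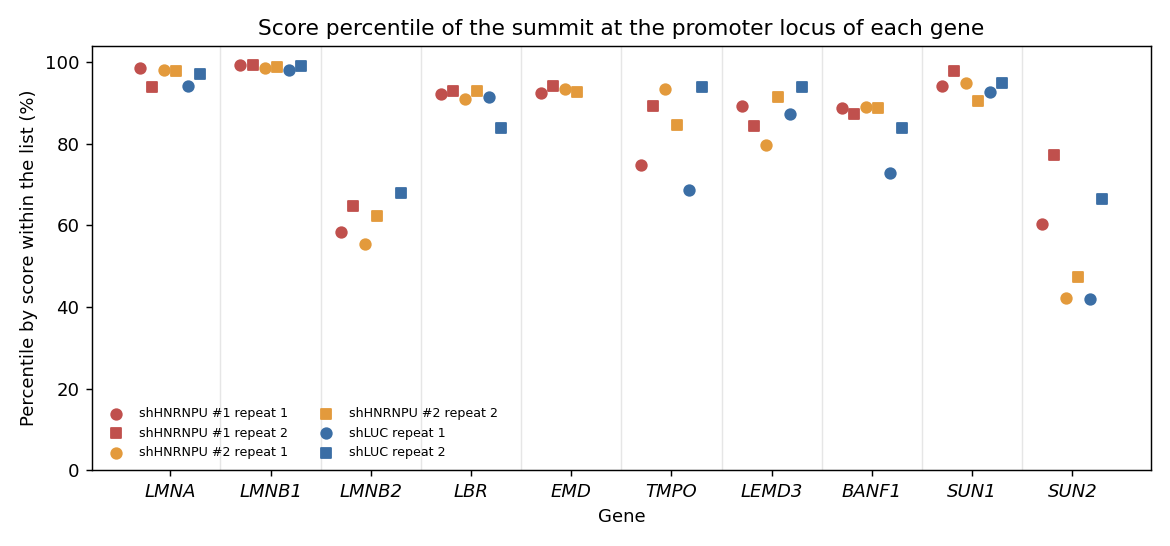
Percentile by score within the own list (vertical axis, %) of the summit at the promoter locus of each gene (horizontal axis), 1 point per library with a summit within 250 bp. For SUN1, which has no listed start, the locus is the one 61 bp from an end of GET4. Values are at least 68.7% for all genes but LMNB2 and SUN2. BANF1 is the gene with summits from all 6 libraries at which every shHNRNPU point is above both shLUC points, and EMD has no shLUC point because the shLUC summits lay over 250 bp away.

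Over the 27 loci that all libraries shared, the percentile was higher in every shHNRNPU library at 4 and lower at 3, beside 10.8% and 13.9% of the 25520 such loci in the genome. The median difference between the group means was 1.44 points, beside -0.293 over all shared loci. The positions of the summits did not overlap between the groups at 5 of the 27, beside 14.1%. Those were the loci at 8280 bp and 67460 bp in the LMNA window, at 1823 bp in LMNB1, at -6218 bp from LMNB2 and at -9596 bp from EMD. Over the 6 libraries the summits of a shared locus spread over a median of 105 bp, beside 108 bp for all shared loci.

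Taken alone, shHNRNPU #1 lost 3 and gained 4 of the 74 loci, beside 3.53% and 3.62% of all loci. With shHNRNPU #2, 3 were lost and 2 gained, beside 4.05% and 2.40%. The hairpins shared the LMNA and TMPO losses and both EMD gains, which the definition of lost and gained loci over all libraries fixes. Each hairpin lost 1 further locus. For shHNRNPU #1 it lay at -8674 bp from LMNA, inside MEX3A, and for shHNRNPU #2 at -6266 bp from TMPO. Both comparisons use the same shLUC libraries. The further gains of shHNRNPU #1 were the TMPO loci centred at -11716 and -11426 bp, which belong to the shifted region described above. Both centres are summits of shHNRNPU #2. Both loci hold the same pair of shHNRNPU #1 summits, at -11514 and -11501 bp, so that pair is counted in each.

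Another 30 genes of the nuclear envelope, with nesprins, torsins, lamin-processing enzymes and nuclear pore proteins, were taken for comparison. Their windows held 191 loci, of which 55 (28.8%) were present in all libraries. Summit numbers were higher in every shHNRNPU library at 3 of the 30 genes and lower at 2, beside 3.54% and 3.92% of gene windows. The higher ones were ICMT, the methyltransferase that acts on farnesylated lamins (5 to 7 against 4 and 4), SYNE2, a nesprin (8 to 12 against 6 and 7), and VRK1, a kinase that phosphorylates the BANF1 product (2 in each against 1 and 1). The lower ones were TOR1AIP1, also called LAP1 (1 to 2 against 3 and 3), and NUP133, a pore scaffold protein (2 to 3 against 4 and 4). Of the 191 loci 1 was lost, in NUP210, and 3 were gained, in the windows of ICMT, NEMP1 and VRK1, beside 1.93% and 0.880% of all loci. The gained NEMP1 locus lay at -372 bp from the start of its neighbour NAB2 and had a shLUC summit 780 bp away, and the lost NUP210 locus had a shHNRNPU summit 360 bp away.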

How the data were processed

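ATAC-seq of H1 cells was given as 1 list of summits per library (4 shHNRNPU, 2 shLUC). The authors deposited 1-bp summits with a −log10 q-value as score, and per the labels the tools were cutadapt, Bowtie2, SAMtools, MACS2 and deepTools, without versions, on hg38. Peaks were called in each library separately, the settings are not given in the sources used here, and a deeper library can yield more summits. The paper supplied with the series does not describe these libraries and served for style.

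Summits were placed beside RefSeq genes (GRCh38.p14). As a check of the build, 26.3 to 30.7% of the summits lay within 2000 bp of a listed start, against 5.3 to 5.88% with starts moved by 10000 bp. Summits of all libraries were grouped within 250 bp of a centre, strongest first, and windows reached 20 kb beyond each gene. The promoter locus was the one with the highest mean percentile within 2000 bp of a listed start. For SUN1, with no listed start, either end of the gene was used, and the locus taken cannot be given to SUN1 alone. Python 3.11.15, numpy 2.4.6, pandas 2.3.3 and matplotlib 3.10.9 were used, and the grouping was tested on simulated data. The genes and comparison lists were chosen with earlier results of these data known, so no test was run. By rule, all 10 genes are named with their promoter, lost, gained and shifted loci, and the comparison genes that hold a lost or gained locus or whose counts did not overlap. Further loci in the windows were named after their values were seen. The alternatives tried were dropping summits that score under 5, cutting every list to its best 52168 summits, match distances of 100 and 500 bp, windows of 5 and 50 kb and leaving out each library.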

Additional observations from a re-analysis of the deposited data

Results flagged for a closer look

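Within the 4 shHNRNPU libraries, 37 measures were examined for a single library far from the others, and 4 stood out. A nominal rate of 1 in 20 would give 1.85. That rate does not hold for small tied counts such as those of EMD, so no excess is read from these numbers. The gap to the nearest library, as a share of the whole range, was 1 for the EMD summit count, where shHNRNPU #2 repeat 2 had 4 summits and the others 5 each. It was 0.867 for the LMNA start locus at 156082647, where shHNRNPU #1 repeat 2 had the lowest percentile, 94.0. It was 0.845 for the LMNA locus at 156106498, where shHNRNPU #2 repeat 1 had the highest, 85.5. It was 0.837 for the SUN1 locus at 816575, where shHNRNPU #1 repeat 1 had the lowest, 81.6.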

How the results depend on the processing

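Of 145 recomputed values 118 stayed within their limits and 27 moved. A count stayed when it was within a ratio of 1.5 of the reported count, whichever loci or genes made it up. The summit number and the percentile differences stayed when they changed by less than the SD of the shHNRNPU libraries. With only scores of at least 5, the 2 lost loci were in LMNB1 and TMPO and the gained ones in EMD and TMPO. The number of lost loci, 2 as reported, was 1 when lists had one size, when 500 bp counted as a match and in 5 kb windows, and 2 to 7 with 1 library left out. Gained loci, also 2, numbered 4 at 100 bp and 1 with 5 kb windows, and 2 to 5 with 1 library left out. Shifted loci, also 2, numbered 6 at 100 bp, 1 at 500 bp, 1 with 5 kb and 4 with 50 kb windows, and 2 to 5 with 1 library left out. Genes with counts that did not overlap, 2 as reported, numbered 2 to 4 with 1 library left out. Without shLUC repeat 1 there were 5 lost loci and 4 such genes, and without shLUC repeat 2 there were 7 lost, 5 gained and 5 shifted loci and 4 such genes. Fewer libraries make each definition easier to meet, and narrower windows hold fewer loci. For the other changes the cause was not tested. The gained locus at the EMD start, and its shift, were lost at the 500 bp match distance, and the other gained EMD locus when summits scoring under 5 were dropped and in 5 kb windows. TMPO held a lost locus under all but the 500 bp match distance and the 5 kb windows. At the 500 bp match distance it held a gained locus instead. Of 89 recomputed percentile differences at promoter loci 82 kept their sign, and the others were at loci where the groups overlapped. Without shLUC repeat 1 the difference went from 1.44 to -0.0762 points at LMNA, from 0.321 to -0.216 at LMNB1, from 4.13 to -8.49 at TMPO, from 0.575 to -0.481 at SUN1 and from 2.51 to -9.77 at SUN2. Without shHNRNPU #1 repeat 2 it was -0.572 at SUN1 and -4.29 at SUN2. The SUN1 values are those of the locus beside GET4. No paired analysis was possible because the results come from no test, and whether the repeat numbers mark a shared batch is not given in the labels. Without read counts, a missing summit cannot be told apart from low depth.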
